A study of Rattus norvegicus with 40 samples.

Results

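The comparison set kidney against blood in CRL rats on LS chow: 49145 regions in which DNA methylation was measured in libraries labelled kidney T cells and libraries labelled circulating T cells from the same pools of rats. All rows of the deposited table for this contrast were taken, 49145 of the 630893 rows that the 15 tables of the series hold together. Each row is a stretch of at least 5 CpGs, the cytosine-guanine pairs at which mammalian DNA is methylated, with 1 methylation level for blood and 1 for kidney. The level is the share of methylated cytosines, printed here in percent as the authors' mean of a group.

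The rats were Dahl SS/JrHsdMcwiCrl (SS/CRL), a colony of an inbred strain known for salt-sensitive hypertension, and were 10 weeks old. They ate the chow labelled LS, read here as low salt. Blood and kidney each gave 1 library from pools 13 to 16, with 3 rats in a pool, so that 8 of the 40 libraries of the series entered and both tissues came from the same animals. No transgene, deletion or drug is named for these groups, and the labels name no sort, gate or isolation step for either cell preparation. Reduced representation bisulfite sequencing was used, which reads the CpG-rich fragments of a restriction digest after bisulfite has turned unmethylated cytosines to uracil.

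CpG methylation is written by DNA methyltransferases, copied at cell division and lost by failed copying or by oxidation through Tet enzymes. Promoters rich in CpGs are mostly unmethylated in every cell type, whereas gene bodies and the space between genes are mostly methylated except at enhancers in use. Cell types therefore differ at enhancers, at alternative promoters and at CpG-poor promoters, and genes of a lineage are commonly unmethylated in that lineage and methylated in others. T cells, the lymphocytes that recognise antigen through the T cell receptor, enter the kidney of salt-fed Dahl rats and are known to take part in its hypertension and renal damage.

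Promoters of a few genes on which the results turn are shown first, to give the CpG content of their start sites as background to the levels. The stretches run from 250 bases before to 50 bases after the start of the gene in RefSeq, assembly GRCr8, with each CpG in capitals, 5′ to 3′ along the gene. Lat (chr1:190372087-190372386, minus strand) is the adaptor that carries the signal of the T cell receptor, and Cybb (chrX:16065016-16065315, minus strand) is the catalytic subunit of the phagocyte NADPH oxidase. Cd37 (chr1:104860735-104861034, minus strand) is a tetraspanin of leukocytes. Slc22a8 (chr1:214927034-214927333, plus strand) is an organic anion transporter of the proximal tubule, and Epcam (chr6:12649629-12649928, minus strand) is an adhesion molecule of epithelium.
Lat: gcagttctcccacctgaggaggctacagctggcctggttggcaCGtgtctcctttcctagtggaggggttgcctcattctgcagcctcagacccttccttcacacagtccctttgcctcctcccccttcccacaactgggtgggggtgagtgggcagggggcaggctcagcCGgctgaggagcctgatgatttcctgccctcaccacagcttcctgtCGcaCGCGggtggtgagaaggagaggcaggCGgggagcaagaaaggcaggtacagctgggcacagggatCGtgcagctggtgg
Cybb: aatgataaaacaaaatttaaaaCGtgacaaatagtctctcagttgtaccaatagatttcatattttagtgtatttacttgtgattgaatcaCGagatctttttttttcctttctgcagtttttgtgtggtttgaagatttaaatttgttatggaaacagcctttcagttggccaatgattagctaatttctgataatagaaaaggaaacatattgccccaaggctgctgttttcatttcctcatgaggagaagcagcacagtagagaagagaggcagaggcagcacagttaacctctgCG
Cd37: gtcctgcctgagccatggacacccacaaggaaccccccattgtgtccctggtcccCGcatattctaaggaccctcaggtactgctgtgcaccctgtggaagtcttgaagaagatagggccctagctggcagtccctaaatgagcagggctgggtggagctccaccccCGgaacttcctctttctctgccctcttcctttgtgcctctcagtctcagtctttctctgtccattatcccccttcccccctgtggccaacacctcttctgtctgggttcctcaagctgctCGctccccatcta
Slc22a8: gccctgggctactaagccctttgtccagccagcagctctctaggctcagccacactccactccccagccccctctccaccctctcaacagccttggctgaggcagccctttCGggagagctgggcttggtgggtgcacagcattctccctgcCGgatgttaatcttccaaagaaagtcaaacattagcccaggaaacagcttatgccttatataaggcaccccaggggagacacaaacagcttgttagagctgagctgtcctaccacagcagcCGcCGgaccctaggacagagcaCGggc
Epcam: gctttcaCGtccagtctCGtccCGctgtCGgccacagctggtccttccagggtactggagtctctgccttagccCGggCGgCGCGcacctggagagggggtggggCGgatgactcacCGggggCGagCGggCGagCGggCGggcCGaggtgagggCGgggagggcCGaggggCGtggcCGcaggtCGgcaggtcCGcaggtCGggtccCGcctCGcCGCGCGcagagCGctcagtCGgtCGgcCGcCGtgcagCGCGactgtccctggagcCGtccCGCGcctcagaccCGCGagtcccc
The 5 stretches held 7 CpGs in Lat, 3 in Cybb, 3 in Cd37, 5 in Slc22a8 and 40 in Epcam, beside a median of 7 and quartiles of 3 and 19 over the 33469 promoters of the RefSeq table. The letters TGTGGT, or ACCACA on the other strand, which are the core that Runx factors bind, were present in Lat, Cybb and Slc22a8 and in 17.3% of all promoters of that table. The measured regions are positions of rn5, and their place within these GRCr8 stretches was not determined.

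Kidney libraries were less methylated than blood at most regions that differed. Calls here combine an adjusted p of the authors under 0.05 with a difference, as they give it, of 10 percentage points or more. By this rule 10065 of the 49145 regions were called lower in kidney (20.5%) and 980 were called higher (1.99%), so that 91.1% of the calls were decreases. The mean level over all regions was 28.4% in blood and 20.7% in kidney, and the median was 4.05% and 1.31%. A level is that of all the cells in a library, and a change within T cells and a change in the mix of cell types cannot be told apart in it. No values of single pools were used here, so that the spread between pools, the overlap of the groups and the read depth behind a level are unknown. The regions nearest to the limit went from 24.3% in blood to 12.8% in kidney just inside it and from 13.9% to 3.89% just outside it among decreases. Among increases the nearest went from 3.09% to 13.1% just inside and from 1.80% to 11.8% just outside.

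The table sorts regions into 3 classes by gene position, TSS (at a transcription start), Intragenic and Intergenic. TSS regions were nearly free of methylation in both tissues: their mean was 5.91% in blood and 3.15% in kidney over 20301 regions, and 16340 of them were under 5% in both. Of the TSS regions 7.31% were called lower and 0.813% were called higher. Regions under 5% in blood can hardly fall by the 10 points of a call. They made up 81.7% of the TSS, 21.1% of the Intragenic and 35.6% of the Intergenic class. Intragenic regions were the most methylated, at a mean of 53.3% in blood and 38.7% in kidney over 8119 regions, with 37.0% called lower and 3.87% higher. Intergenic regions lay between, at 40.7% and 30.8% over 20725 regions, with 26.9% called lower and 2.42% higher. The balance of the calls hardly differed between the classes, since decreases made up 90.0% of the calls in TSS, 90.5% in Intragenic and 91.8% in Intergenic regions. Regions lower in kidney started from a median of 38.2% in blood and reached 9.67% in kidney in the TSS class, and went from 77.9% to 32.5% in the Intragenic and from 74.9% to 33.4% in the Intergenic class. Regions higher in kidney rested on little blood methylation in each class, with medians of 3.80% and 28.9% (TSS), 10.2% and 42.1% (Intragenic), and 10.5% and 42.4% (Intergenic), blood first. Regions share pools and neighbouring CpGs, so that these shares are descriptions and were not tested against each other.

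**Figure D1:**
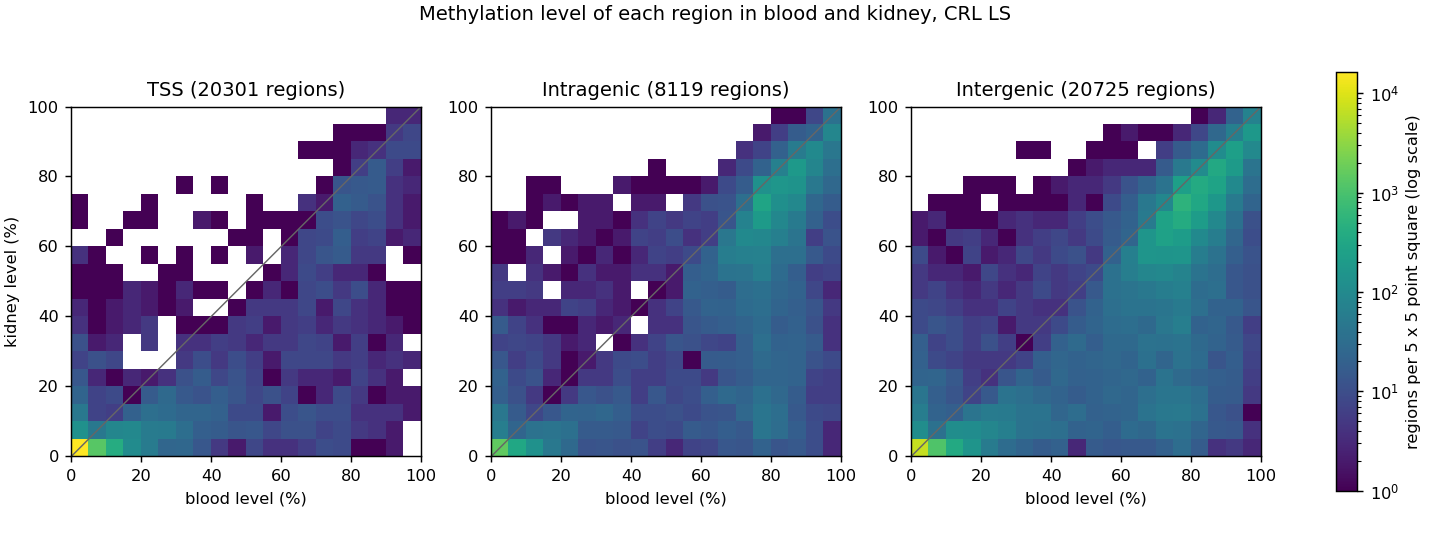
Level of each region in blood (x axis, %) and kidney (y axis, %) in the 3 classes, as the number of regions in squares of 5 by 5 percentage points on a log colour scale, with the line of equal levels. The TSS class crowds at the bottom left, where 16340 of 20301 regions were under 5% in both tissues, and the Intragenic and Intergenic classes spread below the line from blood levels above 60%.

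How often a region was lower in kidney differed with its level in blood. Of the 1870 regions at 20% to 40% in blood, 72.1% were called lower, with medians of 28.8% in blood and 11.7% in kidney. TSS regions at 40% to 60% in blood gave the highest share of any class and bin, 83.5% of 272, and their median went from 48.6% to 17.3%. Among regions at 60% to 80%, 68.8% of the TSS class were lower beside 46.5% of the Intragenic and 42.4% of the Intergenic class. The 7126 regions over 80% in blood included 1765 under 60% in kidney, 1045 under 40%, 483 under 20% and 74 under 5%. In the other direction change was rarer and smaller: of 25692 regions under 5% in blood, 226 stood over 20% in kidney, 61 over 40%, 8 over 60% and 0 over 80%, and the highest reached 72.1%. In the Intragenic class 12.8% of regions at 20% to 40% in blood were called higher, against 3.60% of the TSS class in the same bin.

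**Figure D2:**
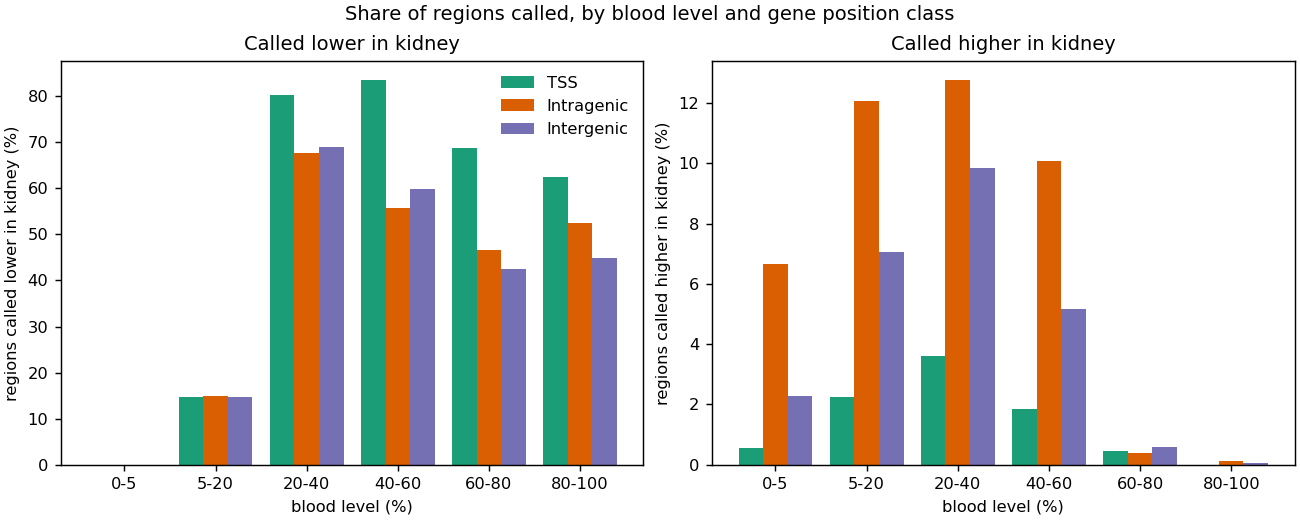
Share of regions called lower (left) and higher (right) in kidney, in percent (y axes, which differ in scale), by blood level in percent (x axis) and class (bar colour). Decreases were most frequent in TSS regions at 40% to 60% in blood, at 83.5%, and increases in Intragenic regions at 20% to 40%, at 12.8%.

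The largest decreases took regions from nearly full methylation in blood to nearly none in kidney. The 10 largest with a gene name stood between 93.1% and 96.7% in blood and between 0.694% and 5.47% in kidney, and 1 of them was a TSS region. An intragenic region of Cdk17, a cyclin-dependent kinase, on chromosome 7 from 34137032 to 34137127 (rn5), was at 94.96% in blood and 0.694% in kidney over 5 CpGs. Jak3, the kinase of the cytokine receptors that share the common gamma chain, was at 95.4% and 1.86% in an intragenic region on chromosome 16 from 19978710 to 19978779. That was 1 of 5 intragenic regions of Jak3, all called lower, whose kidney levels lay between 1.86% and 32.3%, while its TSS region was at 0.0347% in blood and near 0 in kidney. Map7, a microtubule-binding protein of epithelium, went from 94.2% to 1.48%, and Glb1, the lysosomal beta-galactosidase, from 95.5% to 3.63%. Nradd, a membrane protein with a death domain, gave the TSS region of the group, at 93.1% and 1.48% over 9 CpGs on chromosome 8 from 118234737 to 118234859. Cisd1, an iron-sulphur protein of the outer mitochondrial membrane, went from 96.7% to 5.47%, and the protein kinase gene Prkce from 94.2% to 3.08%. Sipa1, a GTPase-activating protein for Rap, was at 94.0% and 3.06%. Lama1, a laminin chain of basement membranes, was at 95.7% and 4.88% over 10 CpGs, and Cd37 at 94.3% and 3.84% in a region inside the gene. In the authors' deposited table the adjusted p of these 10 regions, from a Mann-Whitney test, lay between 1.66e-12 and 4.36e-07. Both ends are the smallest values that regions of 10 and of 5 CpGs reached, and 814 regions of 5 CpGs share the latter. The range thus follows the number of CpGs and does not rank the regions. Further large TSS decreases were those of Pim3, a serine-threonine kinase, from 94.5% to 6.57%, and Vps37d, a subunit of the ESCRT-I sorting complex, from 90.8% to 3.61%.

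The largest increases were smaller and did not reach full methylation. The 10 largest with a gene name lay between 0.229% and 17.7% in blood and between 59.9% and 79.6% in kidney, and 3 of them were TSS regions. Pced1b went from 10.3% in blood to 79.6% in kidney on chromosome 7 from 138445003 to 138445109. Kcnn4, the calcium-activated potassium channel that sustains calcium entry in activated T cells, went from 3.33% to 72.1% in a TSS region of 8 CpGs on chromosome 1 from 82495575 to 82495728. The TSS region of Cybb was at 4.26% and 69.8% on chromosome X from 15357847 to 15357922, and that of Lrfn4, a synaptic adhesion molecule, at 0.229% and 59.9%. Ptpn6, the phosphatase that restrains antigen receptor signalling in blood cells, was at 1.27% and 61.6% in an intragenic region. Intragenic regions of Sema4f, a semaphorin, and Mlh3, a mismatch repair protein, had blood levels of 4.78% and 10.1% and kidney levels of 68.2% and 72.1%. Those of the GTPase-activating gene Arhgap20 and of Zc3h13, part of the complex that methylates adenosine in RNA, went to 66.3% and 76.3% in kidney. In the authors' deposited table the adjusted p of the 10 increases, from the same test, lay between 1.15e-10 and 1.13e-06. The former is the smallest value that regions of 8 CpGs reached.

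**Figure D3:**
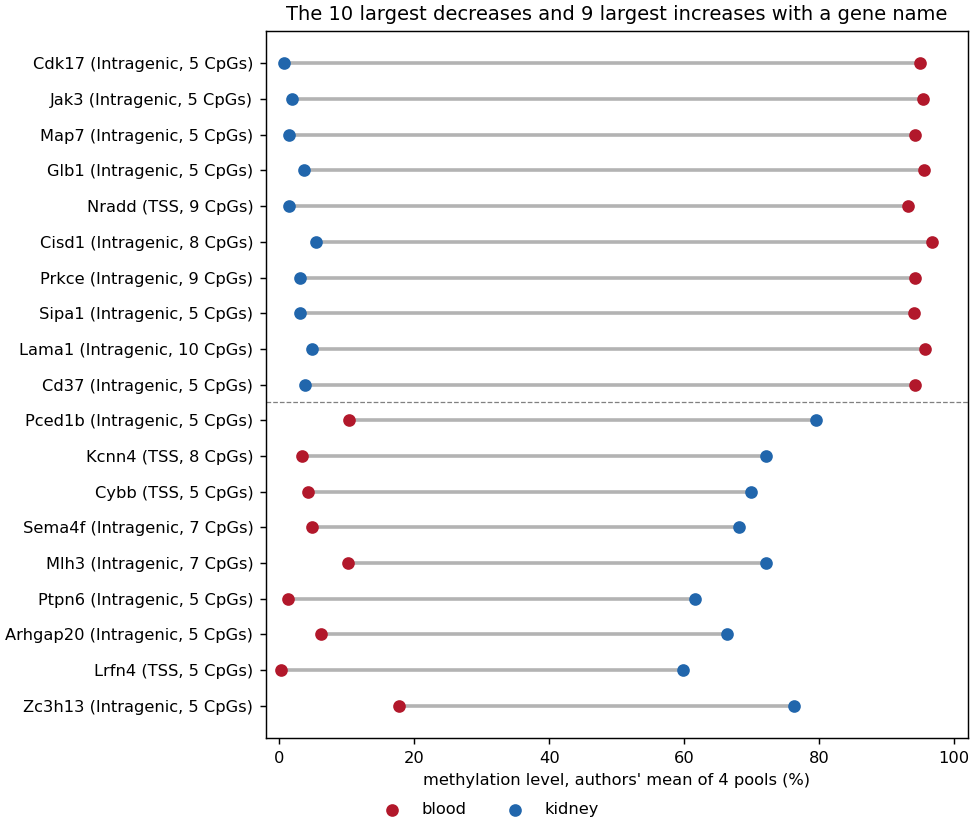
Blood (red) and kidney (blue) methylation level in percent (x axis) of the 10 largest decreases (above the dashed line) and the 9 largest increases (below it) among regions with a gene name, each point the authors' mean of 4 pools. The decreases span nearly the whole scale, down to 0.694% in Cdk17, whereas no increase passes 79.6%.

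Some genes held regions called in both directions. Of the 9483 genes with a region, 2993 had at least 1 called lower (31.6%), 408 at least 1 called higher (4.30%) and 184 both (1.94%). Cd37 had the widest span: its TSS region on chromosome 1 from 102300452 to 102300687 was at 1.05% in blood and 58.5% in kidney, while a second TSS region was at 82.4% and 49.8%. The regions inside Cd37 went from 94.3% to 3.84% and from 85.6% to 20.9%. Kcnn4 showed the same two-sided picture, with its TSS region higher in kidney and its intragenic region of 16 CpGs going from 76.9% to 9.35%. In Pced1b 6 of 9 regions were called lower beside the 1 called higher. Cmip, an adaptor of T cell signalling, had 14 of 24 regions called lower and 1 called higher, from 17.4% to 63.1%. Of the 54 genes with both a TSS and an Intragenic region whose TSS region was called higher, 34 (63.0%) also had an Intragenic region called lower, beside 55.5% of all 2216 genes with regions in both classes.

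Genes of the T cell receptor and of T cell identity were called in both directions. Of the 22 with a region, 10 had a region called lower, 8 a region called higher and 1 (Gata3) both, beside 31.6% and 4.30% of all genes. Their 76 regions had a median of 16.8% in blood and 10.6% in kidney, beside 4.05% and 1.31% over all regions. The median of the differences taken region by region was -0.134 points, beside -1.80 over all regions. By the authors' q-value column under 0.05 in place of the adjusted p, 3 of these genes had a lower and 1 a higher region. The CD3 genes (Cd3e, Cd3d and Cd3g), Cd4, Foxp3, Ifng and Il17a had no region in this table, so that the label of T cells could not be read from them. Lat was listed at 0 in blood and at 27.6% in kidney at its TSS, on chromosome 1 from 204752596 to 204752649. Lcp2, the adaptor that works with Lat, was at 13.7% and 69.8% in an intragenic region of 10 CpGs. Cd247, the zeta chain of the receptor, had 2 regions called higher, from 33.4% to 57.1% and from 23.4% to 48.6%. The co-receptor gene Cd8a was at 52.2% and 67.5% at 1 TSS region and at 10.4% and 6.44% at the other, which was not called. Ubash3a, a suppressor of receptor signalling, had both of its regions called higher, to 22.0% and 35.8% in kidney. Cd2, an adhesion receptor of T cells, went the other way, with 2 regions called lower, from 68.0% to 51.6% and from 71.3% to 31.6%.

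Several kinases, adaptors and factors downstream of the receptor were called lower. Zap70, the kinase recruited to the zeta chain, was at 69.2% in blood and 16.0% in kidney over 18 CpGs and at 89.1% and 19.6% over 8. Fyn, a Src family kinase of the receptor, had 6 of 8 regions called lower, the largest from 96.5% to 14.7%. Skap1, an adaptor that binds Fyn, had 5 of 9 called lower, the largest from 77.5% to 4.56%. Bcl11b, the transcription factor that fixes T cell fate, had 2 intragenic regions called lower, from 40.5% to 1.97% and from 55.9% to 2.02%. Fyn is expressed in many cell types, including kidney cells, and none of these levels says in which cells of a library the cytosines were unmethylated.

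Lineage factors and cytokine receptors were called lower at shares near that of all genes (31.6%), with higher calls beside them (4.30% of all genes). Of 16 measured lineage factors 6 had a region called lower (37.5%) and 2 a region called higher (12.5%). Runx1, a regulator of blood stem cells, held 17 CpGs on chromosome 11 from 36371712 to 36371968 whose level was 92.7% in blood and 3.81% in kidney, and a TSS region with levels of 38.9% and 14.3%. Runx3, which sets the cytotoxic T cell programme, had 5 of 11 regions called lower, among them TSS regions at 65.1% and 8.90% and at 68.5% and 6.57%. Prdm1 and Bcl6, repressors that oppose each other in lymphocytes, each had an intragenic region that reached 24.6% in kidney, from 83.1% and 80.1%, and Bcl6 also had a region called higher, from 11.5% to 25.9%. Gata3, the factor of type 2 helper cells, was called higher at its TSS over 15 CpGs, from 0.480% to 11.0%, and lower in an intragenic region, from 19.8% to 7.48%. Among 5 measured cytokine genes, 3 were called lower and 0 higher, and at an unadjusted p in the authors' Mann-Whitney test 1 had a higher region, by 0.159 points. Il4, a type 2 cytokine, went from 76.5% to 18.6%, Tgfb1, which restrains inflammation, from 81.9% to 13.5%, and Tnf from 74.3% to 64.2%. Of 13 cytokine receptor and Jak-Stat genes 4 were called lower (30.8%) and 2 higher (15.4%). Il27ra went from 80.8% to 32.5% and Il12rb1 from 82.4% to 43.7%, both receptors of helper cell cytokines. Socs3, the feedback inhibitor of cytokine signalling, was called higher at 2 TSS regions, from 4.77% to 40.9% and from 3.40% to 17.1%. Tgfbr2 had 1 region in each direction, from 79.2% to 23.4% and from 34.9% to 73.8%.

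Activation genes and trafficking genes were mixed as well. Of 11 measured activation and exhaustion genes, 9 had a region called lower and 3 a region called higher, beside 31.6% and 4.30% of all genes. Of their 56 regions 11 were called lower and 3 higher, beside 20.5% and 1.99% of all regions. The TSS region of the immediate early gene Egr1 was at 62.8% in blood and 6.00% in kidney, and an intragenic region of Egr2 at 84.96% and 36.9%. Tnfrsf9, a costimulatory receptor, was at 83.9% and 34.4%, and Lag3, an inhibitory receptor, at 22.9% and 1.58% over 10 CpGs. Kcna3, the voltage-gated potassium channel of T cells, went up from 21.3% to 38.0%, the same direction as the TSS region of Kcnn4. Of 12 measured trafficking genes 4 were called lower and 3 higher. Klf2, the factor that maintains the homing receptors of circulating T cells, was called higher at 2 TSS regions, from 2.56% to 32.1% over 13 CpGs and from 3.80% to 25.8% over 9. S1pr4, a receptor for sphingosine 1-phosphate, went from 20.6% to 59.0%. Itgae, the integrin of tissue-resident T cells, had 3 of 6 regions called lower, the largest from 40.3% to 7.83%, and its partner Itgb7 went from 35.8% to 4.50% over 10 CpGs. Itgal, the integrin that binds ICAM-1, was at 7.32% and 53.9% at its TSS and at 93.2% and 39.5% inside the gene.

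**Figure D4:**
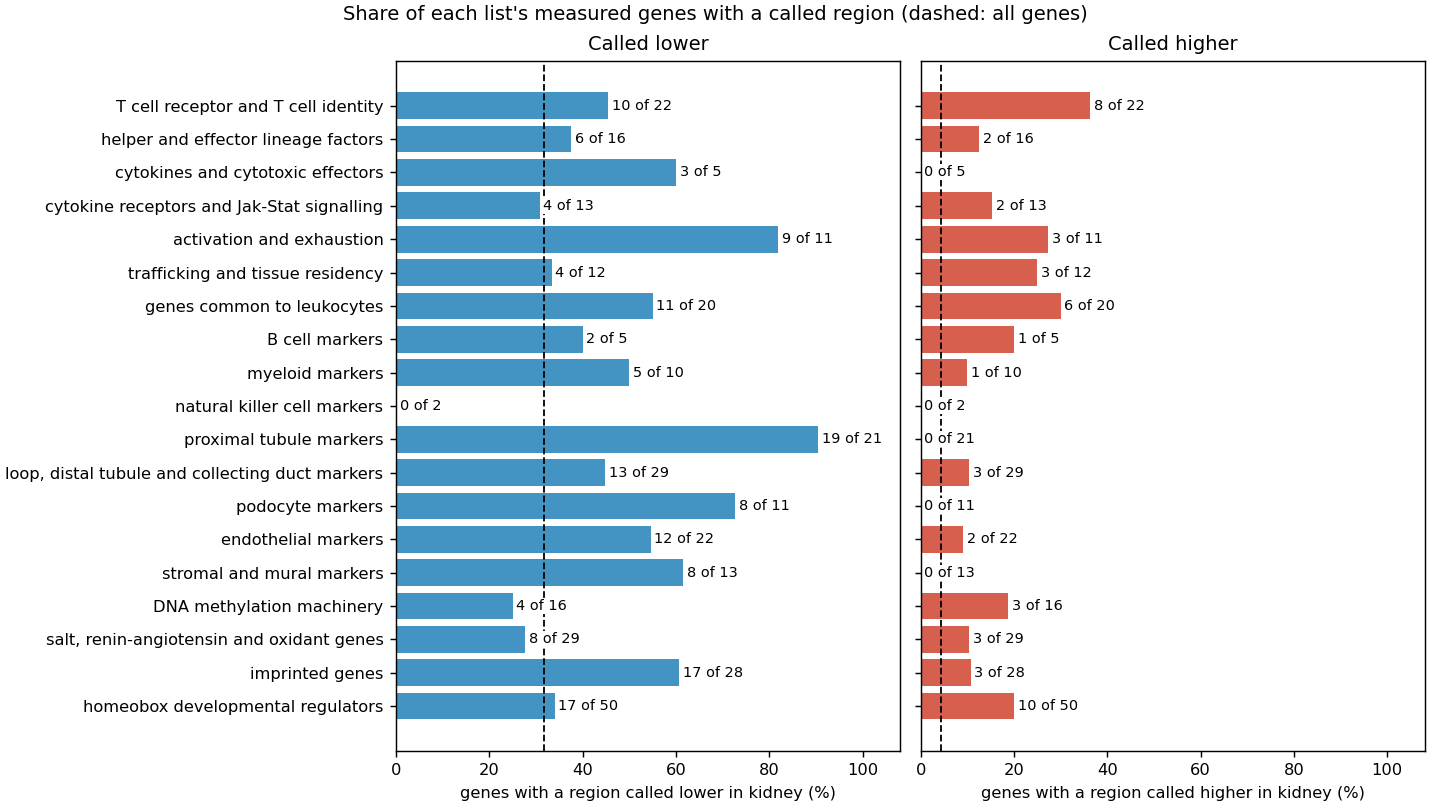
Share of the measured genes of each list with at least 1 region called lower (left) or higher (right) in kidney, in percent (x axes), with the counts beside the bars and dashed lines at the shares over all genes, 31.6% and 4.30%. Proximal tubule genes have the longest bar on the left, at 19 of 21, and T cell identity genes the longest on the right, at 8 of 22.

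Genes common to leukocytes were called in both directions as a list, but few single genes held both as Cd37 did. Of 20 measured, 11 had a region called lower, 6 a region called higher and 3 both, beside 31.6%, 4.30% and 1.94% of all genes. Of their 61 regions 18 were called lower and 6 higher, beside 20.5% and 1.99% of all regions. In 5 of the 6 genes called higher the region was a TSS region. Dok2, a docking protein of leukocyte kinases, went from 19.1% to 67.4% over 12 CpGs, and Arhgap25, a Rac GTPase-activating protein of blood cells, was listed at 0 and stood at 32.4% in kidney. Wipf1, a partner of the actin regulator Was, was at 0.192% and 28.5% at its TSS and went from 76.4% to 3.74% in an intragenic region. Vav1, the exchange factor of Rac in blood cells, went from 84.5% to 41.7%, and Was from 92.8% to 66.7%.

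Markers of other blood cells were called lower at several genes. Of 10 measured myeloid markers 5 were called lower and 1, Cybb, higher, beside 31.6% and 4.30% of all genes. Of their 19 regions 5 were called lower and 1 higher, beside 20.5% and 1.99% of all regions. Itgam, the integrin of macrophages and neutrophils, went from 76.9% to 12.0%, and Fcgr1a, a high-affinity Fc receptor, from 85.5% to 17.9% over 15 CpGs. Ncf1, a cytosolic subunit of the same oxidase as Cybb, went from 33.7% to 1.07%. Of 5 measured B cell markers 2 were called lower (40.0%) and 1 of these also higher. Of their 24 regions 6 were called lower and 1 higher. By the authors' q-value under 0.05, 0 B cell markers were called lower and 0 higher. Ebf1, an early B cell factor, had 3 of 4 regions called lower, the largest from 74.4% to 13.8%. Pax5 had 3 of 15 lower and 1 higher. Neither measured natural killer cell marker was called, though 1 was lower at an unadjusted p in the authors' Mann-Whitney test, as 74.2% of all regions differed in either direction. Ncam1 and Ncr1 were the pair. The TSS region of Ncam1 was at 3.03% in blood and 0.572% in kidney, and the intragenic region of Ncr1 at 84.1% and 73.2%.

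Markers of the proximal tubule were called lower in the kidney libraries at nearly all measured genes. Of 21 measured proximal tubule genes 19 had a region called lower (90.5%) and 0 a region called higher, beside 31.6% and 4.30% of all genes. Of their 51 regions 25 were called lower, beside 20.5% of all regions. Over the 51 the median was 47.7% in blood and 4.35% in kidney. The median of the differences taken region by region was smaller, at -11.9 points, beside -1.80 over all regions. At an unadjusted p under 0.05 in the authors' Mann-Whitney test, at any difference, 21 of the 21 genes had a lower region and 0 a higher one. That p was reached by 74.2% of all regions, so that a lower region at this limit says little about a gene. By the authors' q-value column under 0.05, a stricter reading of the table, 15 were lower and 0 higher. Slc34a1, the phosphate transporter of the brush border, was at 88.2% and 8.66%. The TSS regions of Slc22a8 (chromosome 1 from 231736931 to 231737181) and Slc22a6, both organic anion transporters, stood in blood at 76.5% and 69.2%, and their kidney levels were 4.16% and 9.78%. Pck1, the gluconeogenic enzyme, was at 77.7% and 8.84%. Cubn, an uptake receptor, was at 69.98% and 4.45% inside the gene and at 79.9% and 17.1% at the TSS. Gatm and Slc22a12 were the measured genes of this list with no call. Most of these genes are known for the tubule rather than for T cells, and their part in the other results was not tested.

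Genes of other kidney cell types were called lower less often than those of the proximal tubule, beside 31.6% of all genes called lower and 4.30% higher. A gene with many regions has more occasions for a call. Regions called lower were 18 of 90 for loop, distal tubule and collecting duct and 12 of 68 for podocyte genes. They were 23 of 94 for endothelial and 10 of 67 for stromal and mural genes, beside 20.5% of all regions. These shares lay near or below that of all regions, unlike the 25 of 51 of the proximal tubule genes. Regions called higher numbered 5, 0, 2 and 0 in that order, beside 1.99%. Of 29 measured genes of the loop, distal tubule and collecting duct, 13 were called lower, 3 higher and those 3 were called both ways. The TSS region of Epcam with 7 CpGs (chromosome 6 from 21279125 to 21279239) was at 80.8% and 17.5%, and its second TSS region with 28 CpGs at 10.3% and 1.92%, which was not called. Krt8, a keratin of simple epithelium, was at 84.6% and 39.9%, and Ap1m2, an epithelial sorting adaptor, at 56.9% and 8.69%. Of 11 measured podocyte genes 8 were called lower and 0 higher, with Ptpro, a phosphatase of the podocyte foot process, at 77.8% and 14.5% and Magi2, a scaffold of the slit diaphragm, at 79.6% and 38.9%. Of 22 measured endothelial genes 12 were called lower and 2 higher. Tie1, an endothelial receptor, was at 96.1% and 25.1%, and Flt1, a receptor of the vascular growth factor VEGF, at 78.2% and 11.4%. Nos3, the endothelial nitric oxide synthase, had 2 regions called lower and 1 called higher, from 23.0% to 72.9%. Of 13 measured stromal and mural genes 8 were called lower and 0 higher. At an unadjusted p under 0.05 in the authors' Mann-Whitney test, at any difference, 3 podocyte and 2 stromal genes had a higher region. These increases reached 9.56 and 8.89 points at most. That p was reached by 74.2% of all regions. With the authors' q-value under 0.05 in place of the adjusted p, fewer genes were called lower. They were 5 genes of the loop, distal tubule and collecting duct, 1 podocyte, 6 endothelial and 2 stromal genes. By that limit 2, 0, 0 and 0 were higher, in the same order. Acta2, smooth muscle actin, was at 91.3% and 14.0%, Myh11, smooth muscle myosin, at 91.5% and 34.1%, and Col4a1, a collagen of basement membranes, at 75.6% and 0.122%.

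Imprinted genes, of which each cell silences the copy from 1 parent by methylation, were spread from low to high levels in blood. Of 28 measured, 17 had a region called lower (60.7%) and 3 a region called higher (10.7%), beside 31.6% and 4.30% of all genes. Of their 105 regions 40 were called lower and 3 higher, beside 20.5% and 1.99% of all regions. Over the 42 of their 105 regions between 25% and 60% in blood the median was 39.5% in blood and 25.1% in kidney, and 25 were called lower. All 3056 regions in the same band had medians of 43.0% and 19.1%, and 2057 were called lower. Most of the imprinted regions in the band were TSS regions, 36 of 42, and 21 of these 36 were called lower. Of all 646 TSS regions in the band 536 were called lower. The median difference was -12.9 points in the 36 and -22.7 in the 646, and this gap was not tested. Igf2r, the receptor that clears Igf2, had 5 of 10 regions called lower, among them a TSS region of 27 CpGs at 42.0% and 9.37%. Gnas, which encodes a stimulatory G protein subunit, had 9 of 16 lower and 1 higher. Plagl1, a growth regulator, went from 37.4% to 10.1% over 29 CpGs, and Grb10, an adaptor that restrains insulin signalling, from 41.0% to 17.8% over 51. Zrsr1 held TSS regions at 49.3% and 7.07% and at 40.5% and 30.02%. Blcap and Nnat share a region that went from 97.4% to 41.6%, and Hm13 went from 88.9% to 9.21% over 19 CpGs. Nap1l5 was called higher, from 44.0% to 66.9%.

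Homeobox genes, the developmental regulators that Polycomb holds silent outside their domain, were called in both directions. Of 50 measured, 17 were called lower (34.0%), 10 higher (20.0%) and 3 both, beside 31.6%, 4.30% and 1.94% of all genes. Of their 282 regions 24 were called lower and 17 higher, beside 20.5% and 1.99% of all regions. The 282 regions had medians of 3.32% in blood and 1.23% in kidney. The largest increases lay in the Hoxd cluster. Hoxd12 had all 4 of its TSS regions called higher, the largest from 21.1% to 68.2%, although the levels of 1 of them differed by less than 10 points, at 14.5% and 19.8%. All 3 regions of Hoxd3 were called higher, the largest from 2.63% to 47.4%, and Hoxd9 went from 21.4% to 49.1%. Other genes of that cluster were called lower: Hoxd1 went from 14.0% to 3.43% and Hoxd10 from 12.2% to 1.95%, and Hoxd4 was called both ways, from 43.3% to 28.3% and from 11.2% to 23.7%. The Hoxb cluster was mixed as well, with Hoxb3 at 73.3% and 12.0%, Hoxb5 at 60.5% and 30.1% and Hoxb4 at 22.0% and 1.54%, and Hoxb9 called higher from 2.35% to 11.3%. Pax2, a regulator of kidney development, had 3 intragenic regions called higher, up to 45.5% in kidney, and 2 regions called lower.

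Genes of the methylation machinery and of salt handling were called in both directions. Of 16 measured genes of the methylation machinery 4 were called lower and 3 higher (18.8%), beside 31.6% and 4.30% of all genes. Dnmt3a, a de novo methyltransferase, had 2 intragenic regions called lower, from 70.8% to 54.8% and from 82.7% to 58.8%, and a TSS region called higher, from 5.09% to 24.0%. Its cofactor Dnmt3l went from 7.93% to 34.7% over 14 CpGs. The region of the maintenance enzyme Dnmt1 stood at 87.4% and 83.5% and the 5 regions of Dnmt3b under 1% in both tissues, with no call in either. Tet1, Tet2 and Tet3 had no region here. Kdm2b, which binds unmethylated CpG islands, was called both ways, from 86.7% to 39.3% in its largest decrease and from 29.9% to 53.9% in a region called higher. Of 29 measured salt, renin-angiotensin and oxidant genes 8 were called lower (27.6%) and 3 higher (10.3%). Nedd4l, the ubiquitin ligase of the epithelial sodium channel, had 4 of 9 regions called lower, the largest from 79.2% to 5.69%. Stk39, the kinase that activates sodium-chloride cotransport, went from 97.7% to 25.6%, and Ace, the angiotensin-converting enzyme, from 78.8% to 11.3%. Nos2, the inducible nitric oxide synthase, went from 13.3% to 52.8%.

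MicroRNA genes were named in 166 regions, of which 24 were called lower and 7 higher, beside 20.5% and 1.99% of all regions. Nearly all of them were TSS regions, a class with 7.31% called lower and 0.813% higher. Of the 111 microRNA genes with a region 41 were lower (36.9%) and 7 higher (6.31%), beside 31.6% and 4.30% of all genes, and 1 was called both ways. Clustered microRNAs share regions, so that genes outnumber regions among the decreases. Mature sequences from RefSeq (assembly GRCr8), which matched 46 of the 47 called genes, are shown for the largest changes, for 2 microRNAs known from epithelium (miR-200c and miR-141) and for some that share a cluster or a seed, with the seed (bases 2 to 8) in capitals.
miR-3065-5p: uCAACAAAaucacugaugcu
miR-326-3p: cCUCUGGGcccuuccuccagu
miR-3569: gGAGGACAgcagacucagguc
miR-378a-3p: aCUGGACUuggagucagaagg
let-7e-5p: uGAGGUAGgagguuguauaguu
miR-125a-5p: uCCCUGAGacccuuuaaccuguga
miR-200c-3p: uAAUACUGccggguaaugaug
miR-141-3p: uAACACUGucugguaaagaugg
miR-106b-5p: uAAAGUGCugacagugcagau
miR-93-5p: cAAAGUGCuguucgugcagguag
miR-10b-5p: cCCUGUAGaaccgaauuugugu
miR-196a-5p: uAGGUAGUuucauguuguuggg
miR-196c-5p: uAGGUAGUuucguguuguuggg
miR-138-5p: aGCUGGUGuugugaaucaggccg
miR-6328: aGGCCUGCucugagcccccgc
The region of Mir3065 gave the largest decrease, from 78.6% to 9.07% over 20 CpGs on chromosome 10 from 108790850 to 108791431, and Mir326 followed, from 78.6% to 25.2%. Mir3569 went from 55.2% to 4.07% and Mir378 from 55.1% to 4.63%. Mir99b, Mirlet7e and Mir125a lie in 1 cluster and share a region of 16 CpGs at 81.8% and 32.4%. Mir200c and Mir141, of the family that keeps epithelium from turning mesenchymal, share a region of 13 CpGs at 77.4% and 60.5%. Mir106b and Mir93, which share the seed AAAGUGC, are named in 1 region with Mir25, at 88.6% and 62.9%. Among the 7 microRNA genes called higher, Mir196a and Mir196c, which share the seed AGGUAGU but lie on different chromosomes, went from 3.51% to 16.5% and from 11.3% to 39.6%, and Mir10b went from 2.96% to 21.0%. The largest increase was at Mir6328, from 0.568% to 34.7%, and Mir138-2 went from 19.4% to 45.9%. Mir615 went from 5.29% to 17.0%. Mir149 was the gene called both ways, from 7.89% to 29.0% in 1 region and from 13.5% to 3.33% in another.

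The same contrast in rats on HS chow and in the other colony gave most of the same calls in pools that share no rat with these. The other tables compare kidney with blood in CRL rats on HS chow and in Dahl SS/JrHsdMcwi (SS/MCW) rats on LS chow, both at 10 weeks. In CRL HS 24.6% of regions were called lower and 2.61% higher, and in MCW LS 28.0% and 2.31%. Among CRL LS regions that overlapped a CRL HS region by at least 1 bp, 82.8% of 9392 lower calls were also lower there and 84.6% of 887 higher calls were also higher. Seen from the CRL HS table these shares were 86.0% and 82.2%. For MCW LS they were 88.4% of 9113 and 75.1% of 863, and 82.9% and 88.3% seen from the MCW LS table. Calls in opposite directions were few: 3 and 4 of those called lower and higher here against CRL HS, and 4 and 10 against MCW LS. Over 9593 regions with identical bounds in CRL LS and CRL HS, the mean was 56.7% and 56.5% in blood and 38.0% and 40.2% in kidney. Over the 9213 shared with MCW LS it was 56.1% and 55.8% in blood and 36.5% and 35.8% in kidney. Pearson's r of the kidney minus blood differences was 0.971 in both, over regions that share libraries within a table and are no independent replicates.

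Single regions can be set side by side with these tables. Jak3 stood at 93.6% and 11.7% in CRL HS and at 95.8% and 6.82% in MCW LS in the same region that was at 95.4% and 1.86% here. Epcam was at 81.3% and 23.9% in CRL HS and at 81.1% and 14.1% in MCW LS. Cybb was at 2.16% and 59.0% in CRL HS in the same region. Lrfn4 differed: the region that overlaps the one at 0.229% and 59.9% was at 0.331% and 4.86% in MCW LS and was not called. Of proximal tubule regions called lower here with identical bounds in all 3 tables, 9 of 9 were also called lower in each of the others. Their median kidney level was 18.2% in CRL LS, 28.3% in CRL HS and 18.8% in MCW LS, and their median blood level was 77.2%, 73.2% and 72.5%. Of T cell, trafficking, activation and leukocyte regions called higher here, 6 had identical bounds in all 3 and were called higher in each, with median kidney levels of 34.1%, 43.1% and 33.5%. Whether the kidney levels differ between these groups cannot be told from group means without pools.

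**Figure D5:**
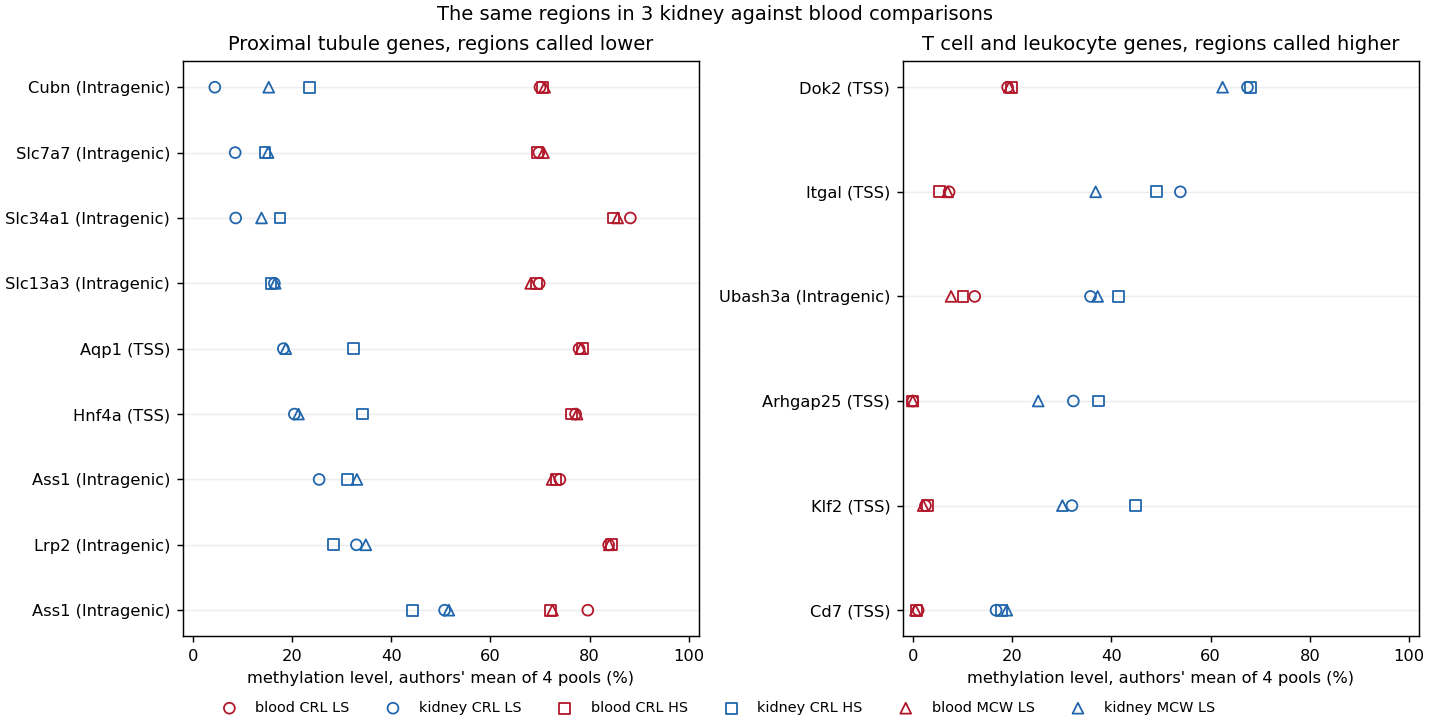
Blood (red) and kidney (blue) levels in percent (x axis) of regions with identical bounds in 3 kidney against blood tables, for proximal tubule regions called lower (left) and T cell and leukocyte regions called higher (right) in CRL LS. Circles stand for CRL LS, squares for CRL HS and triangles for MCW LS, each the authors' mean of 4 pools, and the tissues do not overlap in any row of the plot.

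The CRL LS levels themselves were not fully stable across the authors' tables. In regions with identical bounds in the CRL LS against CRL HS tables of a single tissue, the blood level equalled the one used here within 0.01 percentage points in 89.1% of 3507 regions and the kidney level in 50.4% of 7424. Against the tables of MCW LS and CRL LS the shares were 88.5% of 3771 and 53.1% of 6189. Within 1 percentage point the kidney level agreed in 89.1% and 89.6% of regions, and the largest departure was 17.2 points. Which step made the kidney means differ is not given in the sources used here.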

How the data were processed

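DNA methylation was measured by reduced representation bisulfite sequencing in 8 libraries of 2 groups of 4 pools. Per the file headers, the deposited table gives a level per group as a fraction between 0 and 1, printed here in percent, and the authors' difference, turned here to kidney minus blood. Per the file headers, the authors also deposited p-values of a Mann-Whitney and a further test, a q-value and an adjusted p-value. The latter equalled a Benjamini-Hochberg adjustment of the Mann-Whitney column (largest deviation 6e-16). It reached 1.66e-12, beyond the 0.0286 at which an exact rank test of 4 against 4 pools ends, so that it counts more values than pools and speaks of these pools only. Positions are in rn5, per the submitters' processing notes. Aligner, caller, start convention and depth are not given in the sources used, so that no SD or interval stands beside a level.

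Calls use the authors' own test, and nothing was refitted. The column named for CpG island type holds the gene position classes, so that a comparison by island class and one by gene position are the same. Gene names are those of the table. Of 9483 symbols, 8899 were current in RefSeq (GRCr8) and 460 matched 1 synonym. Of the 7966 genes with a TSS region 79.2% had a promoter in the RefSeq table, so that a comparison of promoter sequence between called and other genes is void. Members, 19 gene lists and naming rule were chosen with earlier results of these data known. The rule took the 10 largest decreases and increases with a gene, genes with the most called regions, the 3 largest changes at TSS regions, up to 4 members of each list, a set of T cell and methylation genes, and genes with the widest span in both directions. Further genes were picked with their values in view. A few genes that the rule names are not reported here. The calling code was tested on simulated data. Python 3.11.15, pandas 2.3.3 and matplotlib 3.10.9 were used.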

Additional observations from a re-analysis of the deposited data

How the results depend on the processing

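No paired analysis was possible because the files hold 1 mean per group and no value per pool, although both tissues come from pools 13 to 16, and leaving out each pool could not be run for the same reason. With no minimum difference 24985 regions were called lower and 5361 higher, and with a minimum of 20 points 6458 and 581. With the q-value column under 0.05 in place of the adjusted p, 2378 and 191 passed. Among regions of at least 10 CpGs 1402 and 117 were called, out of fewer regions. The 5780 regions of 10 to 19 CpGs had 19.5% called lower and 1.63% higher. The 2485 of 20 or more CpGs had 11.1% and 0.926%. The share of TSS regions called lower and higher was 45.7% and 15.2% with no minimum, 4.18% and 0.399% with 20 points, and 2.13% and 0.172% by the q-value. For Intragenic regions it was 56.2% and 7.46% with no minimum and 9.51% and 0.911% by the q-value, and 2.38% were called higher with 20 points. For Intergenic regions it was 53.8% and 8.02%, 16.7% and 1.48%, and 5.66% and 0.396% in that order, and 1.31% were called higher among regions of at least 10 CpGs. An adjusted p under 0.01 and the difference of the levels moved none of these counts by over 1.5 times. CRL LS kidney levels that were equal in 50.4% and 53.1% of regions were equal in 89.1% and 89.6% within 1 percentage point. In all 72 such values were computed and 44 stayed within 1.5 times, among them each mean difference by class and each overlap with CRL HS and MCW LS. Regions without a gene name fill the Intergenic class, so that its mean with gene names only could not be computed. Of the 142 regions named by the rule, 56 lost the call by the q-value, 8 with 20 points and 5 at an adjusted p under 0.01, and 0 reversed. The cause was not tested. The authors' difference and that of the printed levels lay over 0.2 points apart in 3.27% of regions, each with at least 10 CpGs, and 65 called regions had levels under 10 points apart, among them Cdkn1c at 5.90% and 3.28%.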

Other observations

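Genes with the most called regions included repeats. Regions annotated to the ribosomal RNA gene Rn5-8s numbered 85, of which 61 were called lower and 3 higher, with medians of 30.6% in blood and 13.1% in kidney over those called lower. LOC310926 had 56 of 82 called lower, at 28.7% and 11.6%. Ribosomal RNA genes are present in many near-identical copies, so that reads of these copies cannot be placed with certainty and these counts are uncertain. Among single genes Camta1, a calmodulin-binding transcription activator, had 28 of 51 regions called lower, at medians of 79.2% and 30.5%, and Shank3, a scaffold protein known from synapses, 14 of 21, at 77.7% and 22.6%. On the higher side Amn, the partner of Cubn in protein uptake by the proximal tubule, had 8 of 22 regions called higher, at medians of 2.54% and 24.3%, and 2 called lower, whereas both regions of Cubn were called lower. Lrfn4 had 5 of 9 called higher and 0 lower, at 0.141% and 14.2%, and Zfp316 5 of 11, at 6.24% and 32.6%.

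By chromosome, the share of regions called lower ranged from 15.7% on chromosome X to 26.6% on chromosome 12, and the share called higher from 1.00% on chromosome X to 2.63% on chromosome 10. Among the 5645 regions with identical bounds in the CRL LS, CRL HS and MCW LS tables, 3135 of the 3570 called in CRL LS had the same call in each. The CRL LS kidney level lay over 10 percentage points from both others, on the same side, in 145 of them and over 20 points in 9. These were picked for that gap and stand as values only. In Tspan5, a tetraspanin, an intragenic region was at 25.8% in CRL LS kidney, 53.3% in CRL HS and 55.0% in MCW LS, with blood at 77.7%, 78.3% and 77.7%. A second region of Tspan5 was at 6.72%, 32.2% and 32.2% in kidney. In Chat, the enzyme that makes acetylcholine, the order was the reverse, at 53.5% in CRL LS kidney beside 33.3% and 32.5%.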
